A study of Mus musculus with 10 samples.

Results

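Kidneys of mouse embryos that carry the Foxd1GC allele were compared with wild-type kidneys at the embryonic stage E13.5, to ask what the Cre allele does to the kidney transcriptome while Ntn1 is left intact. The comparison took in 7 of the 10 bulk RNA-seq libraries of the series, 3 of Foxd1GC control and 4 of wild-type kidneys, and the 14594 of 35663 table entries whose FPKM averaged 0.5 or more across these 7 libraries. FPKM counts fragments relative to the length of the coding sequence and to the size of the library. The study kept its mice mainly on a C57/b6 background, with the Ntn1SPKO crosses on a pure one. The control genotype is given as Foxd1-Cre, and the remaining 3 libraries, Ntn1SPKO, carry the same allele with Ntn1 floxed. They are used here only where a value is set beside the others.

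Foxd1 is a forkhead transcription factor of the cortical stromal progenitors, the cells at the kidney surface that give rise to interstitial fibroblasts, pericytes, vascular smooth muscle and mesangium. These progenitors signal to the neighbouring nephron progenitors and to the branching ureteric bud. The Foxd1GC allele places a fusion of green fluorescent protein and Cre recombinase at the Foxd1 gene, so that Cre is made where Foxd1 is active. In its discussion the study counts this allele as the loss of a Foxd1 copy. It raises the possibility that this loss, together with that of Ntn1, contributes to ectopic vessels outside the kidney. The level of Cre was not analysed here.

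The study describes each replicate of its control and Ntn1SPKO experiments as a single embryo, from several litters, and the labels say neither this nor anything else on the source of the wild-type libraries. The Y-linked transcripts given below differed between libraries of each group, so neither group was made up only of repeats of a single sample. If some libraries were technical repeats, p-values would leave out part of the spread between embryos. The design text of the series describes 6 samples without the wild-type kidneys, and whether both genotypes were dissected and sequenced together is not stated, so genotype and batch cannot be told apart. Markers of the expected kidney cell types were present in all 7 libraries, with Six2, a nephron progenitor factor, at 63.1 to 96.4 FPKM, Ret, the receptor of the ureteric tip, at 4.09 to 17.2 FPKM, and Pecam1, an endothelial adhesion molecule, at 23.3 to 33.3 FPKM. Markers of adrenal cells were near 0, with Nr5a1 at 0.0127 to 0.194 FPKM. Judged from low values of the same gene, the relative depth was 91.9% to 100% of wild-type replicate 1 in wild-type and 83.2% to 96.2% in control libraries. Absolute depth is unknown. Control replicate 3 stood apart, at 71.2 on a first principal component that held 26.6% of the variance, against −25.9 to 17.0 for the other 6 libraries. Wild-type replicate 3 had the largest summed FPKM, and its genes with coding sequences under 500 bases lay 0.35 above the median of the 7 libraries on the log2 scale, while those over 2000 bases lay 0.17 below it. The Y-linked transcripts Ddx3y, Eif2s3y, Kdm5d and Uty summed to 96.1 FPKM in wild-type replicate 3 and 98.1 FPKM in control replicate 2, and to 0.211 to 1.02 FPKM in the other 5 libraries.

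Foxd1 is the gene that carries the allele. The 250 bases before its start, taken from RefSeq for GRCm38.p6 at chr13:98353995-98354244 on the plus strand, are shown because the allele is inserted at this gene.
Foxd1: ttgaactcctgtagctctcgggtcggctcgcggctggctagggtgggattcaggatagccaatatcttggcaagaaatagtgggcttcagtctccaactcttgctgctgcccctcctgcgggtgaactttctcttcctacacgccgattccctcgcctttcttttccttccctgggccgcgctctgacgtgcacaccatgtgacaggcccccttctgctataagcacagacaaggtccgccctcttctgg

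Foxd1 was measured at 24.1, 21.3, 21.5 and 30.7 FPKM in the 4 wild-type libraries and at 19.7, 14.7 and 25.6 FPKM in the 3 control libraries. The groups overlapped, since control replicate 3 lay above 3 of the 4 wild-type libraries. The group means were 24.4 ± 4.39 FPKM (SD, n = 4) in wild-type and 20.0 ± 5.46 FPKM (n = 3) in control kidneys, and the log2 fold change was −0.31 with a 95% interval of −0.78 to 0.17 (limma adjusted p = 0.679, exact permutation p = 0.314, two-sided). A 2-fold drop, which is −1 on this scale, lay outside the interval. Without control replicate 3 the log2 fold change was −0.50, and without control replicate 2 it was −0.10. In 1 of 23 alternative analyses, the one that left out control replicate 3 and wild-type replicate 3 together, the interval reached −1.09. The Ntn1SPKO libraries, with the same allele, had 14.3, 15.4 and 14.2 FPKM. Their Y-linked transcripts summed to 95.1, 88.6 and 90.1 FPKM. Among the control libraries only replicate 2, the lowest for Foxd1, had such a sum, so the groups differ in sex. The part of sex in the Foxd1 level was not tested. In whole kidneys, fewer cells of a type and less RNA per cell cannot be told apart.

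**Figure D1:**
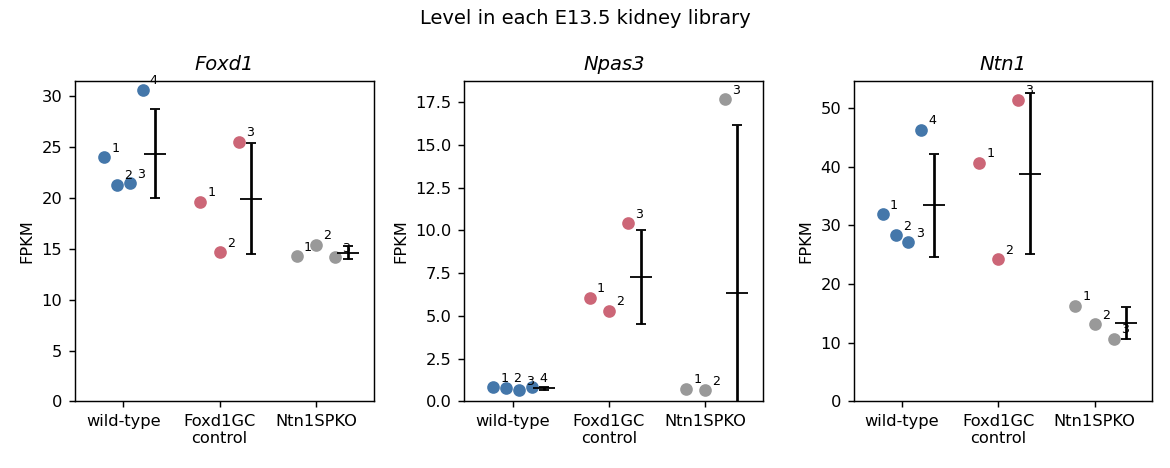
FPKM of Foxd1, Npas3 and Ntn1 (vertical axes, linear) in each library of wild-type, Foxd1GC control and Ntn1SPKO kidneys, with replicate numbers beside the points and the mean ± SD beside each group, cut at 0. Npas3 lies at 5.29 to 10.4 FPKM in the control libraries and under 1 FPKM in the wild-type ones, while the Foxd1 levels of wild-type and control libraries overlap.

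Ntn1 encodes netrin 1, the secreted guidance cue that the study deletes. Its level was 32.0, 28.4, 27.1 and 46.3 FPKM in wild-type libraries. The control libraries had 40.7, 24.2 and 51.5 FPKM, within and on both sides of the wild-type range. The log2 fold change was 0.18 with an interval of −0.47 to 0.83 (limma adjusted p = 0.843), and it turned to −0.06 without control replicate 3. Among 12 tested netrins and receptors, 9 were higher and 3 lower in control kidneys with a median log2 difference of 0.07. Of these, 1 was higher at an unadjusted p under 0.05, beside 3.84% of all genes tested. That gene was Ntn3, a further netrin, with 4.71, 4.44, 4.92 and 4.52 FPKM in wild-type and 6.68, 5.32 and 8.22 FPKM in control libraries. Neo1 and Unc5c, netrin receptors, had log2 fold changes of −0.12 and 0.04.

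Across all 14594 genes, 1 met both conditions of a call, a limma adjusted p under 0.1 and a difference of 2-fold or more, which is 0.00685% of those tested. It was higher in control kidneys. No gene was called lower, while 471 lower genes had an unadjusted p under 0.05. In all, 1031 genes had an unadjusted p under 0.05, 560 of them higher in control (3.84% of genes tested) and 471 lower (3.23%). The balance depended on the scaling, since with every library set to the same total FPKM 482 were higher and 194 lower, or 71.3% higher against 54.3%. Leaving out single libraries gave 316 to 1131 higher and 242 to 1148 lower genes, the lowest without control replicate 3 and the highest without control replicate 2. The groups did not overlap for 590 genes that were higher in control (4.04%) and for 590 that were lower (4.04%). Of genes that differed 2-fold or more and had an unadjusted p under 0.1, there were 114 higher genes (0.781%) and 93 lower genes (0.637%). Pseudogenes and predicted genes made up 104 of these 207, or 50.2%, against 9.92% of the genes tested. The median log2 fold change of all genes was −0.01. The count of calls depended on single libraries: without wild-type replicates 1, 2, 3 and 4 in turn, 4, 3, 7 and 3 genes were called higher and 4, 2, 2 and 1 lower. Without control replicates 1, 2 and 3 in turn, 7, 14 and 1 genes were called higher and 3, 6 and 2 lower. Without wild-type replicate 1, 2 or 4 or control replicate 3, every call but Npas3 was a pseudogene or predicted gene. Without wild-type replicate 3 or control replicate 1 or 2, other genes were called as well.

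Npas3, a basic helix-loop-helix transcription factor known from brain and lung development, was the called gene. Its position in GRCm38 is chromosome 12, plus strand, 53248677 to 54072175. Wild-type libraries had 0.818, 0.791, 0.653 and 0.835 FPKM, and control libraries 6.07, 5.29 and 10.4 FPKM. Every control library lay over 5 FPKM and every wild-type library under 1 FPKM. The log2 fold change was 3.02 with a standard error of 0.25 and an interval of 2.44 to 3.59, an 8.09-fold difference (limma adjusted p = 0.0378). The exact permutation p was 0.0286, the smallest that 3 libraries against 4 can give. It adds no separate support, since Npas3 was named for its small p. Of all genes tested, 4.04% were higher in control without overlap. Npas3 stayed called without any single library, with adjusted p between 0.0148 and 0.0918. It was not called with embryo sex as a covariate when sex was set at a limit of 1 FPKM of summed Y-linked transcripts (limma adjusted p = 0.359), but was at a limit of 10 FPKM (adjusted p = 0.0617). It was also not called with all 10 libraries in one fit (limma adjusted p = 0.474). In that fit the Ntn1SPKO libraries, which carry the same Cre allele, had 0.747, 0.671 and 17.7 FPKM. Over the 23 alternatives the adjusted p ran from 0.0049 to 0.614, and Npas3 was called in 20. The level of Npas3 was thus not shared by every library with the allele.

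**Figure D2:**
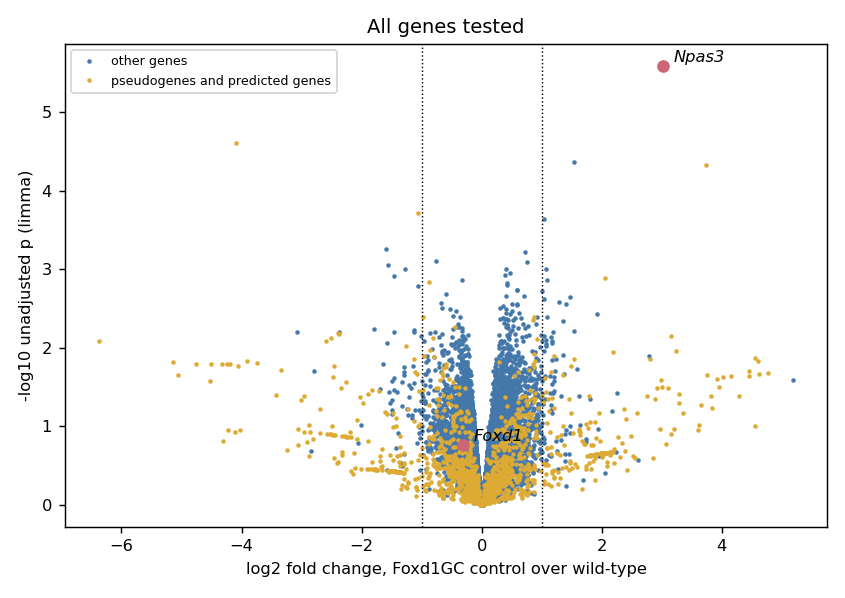
Log2 fold change of Foxd1GC control over wild-type kidneys (horizontal axis) and −log10 of the unadjusted limma p (vertical axis) for the 14594 genes tested, with pseudogenes and predicted genes in yellow and dotted lines at a 2-fold change. Npas3 stands highest on the vertical axis at a log2 fold change of 3.02, and Foxd1 lies near the base at −0.31.

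The next genes by p did not pass the adjusted threshold and are given as values. Syt12, a synaptotagmin of secretory vesicles, had 0.791, 0.816, 0.721 and 0.783 FPKM in wild-type and 2.54, 2.08 and 2.73 FPKM in control libraries, without overlap (log2 fold change 1.53, limma adjusted p = 0.17). Gm13009 and Gm11331, annotated as pseudogenes and named after their values had been seen, shared that adjusted p. Gm13009 was listed at 0 in every wild-type library and at 1.21, 1.16 and 1.34 FPKM in the control libraries. Gm11331 was listed at 0 in every control library and at 2.24, 2.36, 0.768 and 1.63 FPKM in wild-type ones. An entry at 0 in such a file can be a failed estimate among near-identical copies. Apbb3, an adaptor of the amyloid precursor protein family, had 3.19, 4.34, 3.97 and 4.38 FPKM in wild-type and 9.17, 8.99 and 6.75 FPKM in control libraries. Syt7, also a synaptotagmin, had 8.76 to 11.4 FPKM in wild-type and 13.54, 24.5 and 26.2 FPKM in control libraries.

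Among other genes with non-overlapping groups, at least a 2-fold change and the smallest unadjusted p, the higher side held Pld4, Tgfbr3l, Hsd3b6, Nxpe2, Phospho1, Stmn4, Runx2, Frs3, Slc4a1, Mmp28 and Flvcr2. Their log2 fold changes ran from 1.04 for Mmp28, a matrix metalloproteinase, to 1.93 for Stmn4, a stathmin that binds tubulin. Runx2, the transcription factor of bone formation, had 0.665 to 1.25 FPKM in wild-type and 2.12, 1.47 and 2.33 FPKM in control libraries. Phospho1, a phosphatase of skeletal mineralization, had 0.399 to 1.01 FPKM in wild-type and 2.00, 1.54 and 2.60 FPKM in control libraries. Hsd3b6, a steroid dehydrogenase from a family of similar genes, had 1.90 to 3.10 FPKM in wild-type and 7.15, 4.47 and 11.9 FPKM in control libraries. None of these genes passed the adjusted threshold (limma adjusted p = 0.665 for each).

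The lower side included Pnldc1, Ly6a, Gpld1, Derl3, Rec8, Rsph1, Lmbrd2, Cpn1, Cltrn, 1700019D03Rik, Tmem52b, Ggt1, Rnase12 and Hdc, again each with a limma adjusted p of 0.665. Rec8, a meiotic cohesin, had 14.0, 14.6, 17.3 and 14.8 FPKM in wild-type and 3.85, 10.4 and 1.93 FPKM in control libraries. Cltrn, Tmem52b and Ggt1, which are known from the proximal tubule, had log2 fold changes of −1.46, −1.58 and −1.15, with control replicate 3 the lowest library for each. The symbol Lmbrd2 stands on more than 1 entry of the table. The entry named here was listed at 0 in control replicates 1 and 2 and at 0.89 FPKM in replicate 3, against 1.16 to 3.00 FPKM in wild-type libraries, while the better expressed entry had 9.31 to 11.7 FPKM in wild-type and 10.7 to 11.9 FPKM in control libraries.

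The genes around Foxd1 were examined because the Cre allele is linked to them. Within 5 Mb of the Foxd1 start on chromosome 13, 53 protein-coding genes were tested, 16 higher and 37 lower in control, with a median log2 difference of −0.07. Of all genes tested, 51.6% were lower at any size. None of the 53 was called. At an unadjusted p under 0.05 there were 0 higher and 3 lower genes, beside 3.23% of all genes tested on the lower side. The count of lower genes ran from 0 to 7 without single libraries and was 0 at the same total FPKM. The nearest tested genes before Foxd1 were Utp15, Ankra2 and Btf3, with log2 fold changes of −0.17, 0.23 and −0.14. On the other side were Tmem171, Fcho2 and Tnpo1, with −0.48, 0.10 and −0.22. Tnpo1, a nuclear import receptor, was 1 of the 3 genes, with an unadjusted limma p of 0.0433.

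The cortical stroma is the home of the Foxd1 cells. Of 28 tested genes of the cortical stroma and Foxd1 programme, 21 were higher and 7 lower in control kidneys, with a median log2 difference of 0.12. At an unadjusted p under 0.05 there were 3 higher and 1 lower, beside 3.84% and 3.23% of all genes tested. Leaving out single libraries gave 0 higher genes at that p without control replicate 1 or 3 and 12 without control replicate 2. Aldh1a2, the enzyme of retinoic acid synthesis, had 214, 217, 235 and 256 FPKM in wild-type and 187, 183 and 181 FPKM in control libraries. These groups did not overlap, and the log2 fold change was −0.32 with an interval of −0.52 to −0.13 (limma adjusted p = 0.665, exact permutation p = 0.0286). That permutation p is the smallest this design can give, and Aldh1a2 was named for its small p in the list. Of all genes tested, 4.04% were lower in control without overlap. Cxcl12, a chemokine, had 89.3, 83.2, 87.9 and 78.9 FPKM in wild-type and 155, 88.1 and 204 FPKM in control libraries, so that control replicate 2 lay within the wild-type range. Foxd2, a related forkhead factor, had a log2 fold change of 0.34. Klf4, a factor of the outermost stroma, had 9.45 to 13.8 FPKM in wild-type and 14.2, 7.22 and 22.1 FPKM in control libraries, and Tcf21, Pdgfra and Meis1 had log2 fold changes of 0.07, 0.10 and 0.17.

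Nephron progenitor genes showed 12 higher and 7 lower of 19 tested, with a median of 0.08 and 1 at an unadjusted p under 0.05. That gene was on the higher side, where 3.84% of all genes tested reached that p. Six2, which keeps these cells undifferentiated, had 65.3, 63.1, 77.4 and 84.7 FPKM in wild-type and 79.9, 73.8 and 96.4 FPKM in control libraries, with a log2 fold change of 0.20. The genes of the nephron that forms from them lay on the other side. All 16 tested genes of early nephron epithelium and podocytes were lower in control kidneys, with a median log2 difference of −0.73. Of these, 7 had an unadjusted p under 0.05, beside 3.23% of all genes tested on the lower side. None of the 16 was called.

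Fgf8, a growth factor of the renal vesicle, had 7.64, 7.43, 9.62 and 8.96 FPKM in wild-type and 5.39, 6.16 and 6.48 FPKM in control libraries, without overlap (log2 fold change −0.48, limma adjusted p = 0.665). Cdh6, a cadherin of the early proximal tubule, had 12.8, 13.2, 10.5 and 11.5 FPKM in wild-type and 8.33, 9.44 and 9.13 FPKM in control libraries. Dll1, a Notch ligand, had 6.12 to 8.20 FPKM in wild-type and 3.48, 5.74 and 2.84 FPKM in control libraries. For these 3 genes every control library lay below every wild-type library. That was so for 4 of the 16 genes of the list, against 4.04% of all genes tested. Lhx1, a homeobox factor of the renal vesicle, had 24.5, 27.5, 19.1 and 20.9 FPKM in wild-type and 9.02, 22.8 and 2.44 FPKM in control libraries. Wnt4 and Pax8 had the same order of control libraries, with replicate 3 lowest and replicate 2 highest and above the wild-type range. Without control replicate 3, all 16 genes were still lower, 4 at an unadjusted p under 0.05, and the median was −0.30. Without control replicate 2 it was −1.20, with 15 of 16 lower and 13 at that p. Leaving out control replicate 1 left 3, and leaving out any wild-type library or setting the same total FPKM left 4.

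**Figure D3:**
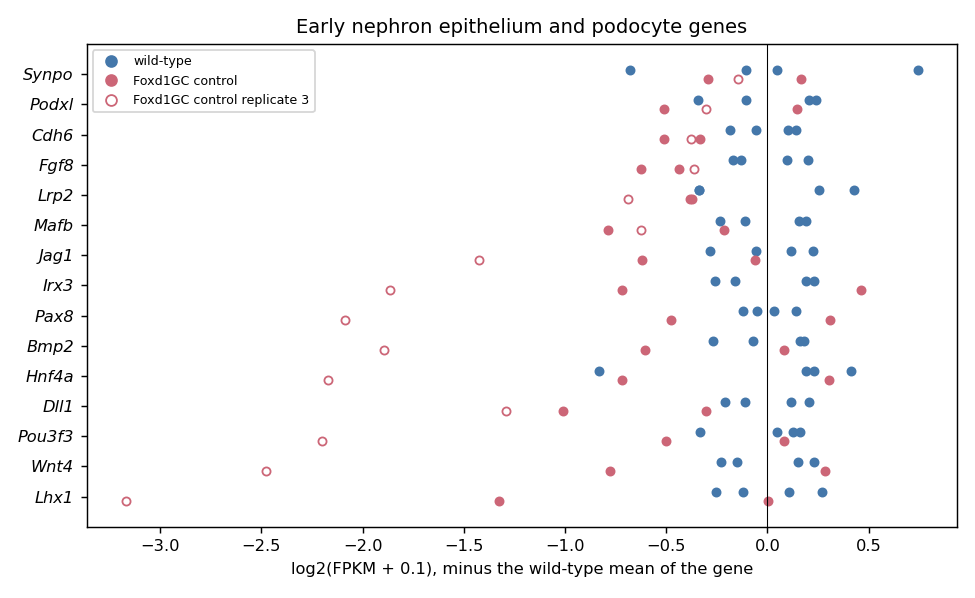
Log2(FPKM + 0.1) of tested early nephron epithelium and podocyte genes in each wild-type (blue) and Foxd1GC control (red) library, as the difference from the wild-type mean of the gene (horizontal axis), with control replicate 3 as open circles. Control replicate 3 lies farthest to the left for Lhx1, and all 3 control libraries lie left of the wild-type ones for Fgf8, Cdh6 and Dll1.

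Ureteric bud genes belong to the branching epithelium that forms the collecting system. Of 21 tested, 5 were higher and 16 lower, with a median of −0.39 and none at an unadjusted p under 0.05, and 18 of the 21 had their lowest value in control replicate 3. Their summed FPKM was 633 to 668 in wild-type libraries and 580, 675 and 320 FPKM in control libraries. Ret had 16.0, 16.2, 14.1 and 17.2 FPKM in wild-type and 16.0, 16.1 and 4.09 FPKM in control libraries. The fall in control replicate 3 was not of that size for every ureteric marker. Wnt11 had 19.1 to 22.9 FPKM in wild-type and 23.3, 19.4 and 20.5 FPKM in control libraries. Hoxb7 had 28.9 to 36.3 FPKM in wild-type and 27.3, 32.4 and 22.9 FPKM in control libraries. The median was −0.03 without control replicate 3, and −0.57 without control replicate 2, when 11 genes reached an unadjusted p under 0.05.

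Globins and other red cell genes were on the higher side. Hbb-y, Hba-x and Hbb-bh1 encode embryonic globin chains of primitive red cells, and Hba-a1, Hba-a2, Hbb-bs and Hbb-bt encode chains that persist in the adult. The pairs Hba-a1 and Hba-a2, and Hbb-bs and Hbb-bt, are near-identical, so the reads of a pair could be split between its members. The 250 bases before the starts of Hbb-y and Hba-a1 (RefSeq, GRCm38.p6) are shown as those of an embryonic and an adult-type globin, with CACCC, the core of the site of Kruppel-like factors, in capitals where it occurs on either strand. The windows are chr7:103853208-103853457 on the minus strand for Hbb-y and chr11:32283422-32283671 on the plus strand for Hba-a1.
Hbb-y: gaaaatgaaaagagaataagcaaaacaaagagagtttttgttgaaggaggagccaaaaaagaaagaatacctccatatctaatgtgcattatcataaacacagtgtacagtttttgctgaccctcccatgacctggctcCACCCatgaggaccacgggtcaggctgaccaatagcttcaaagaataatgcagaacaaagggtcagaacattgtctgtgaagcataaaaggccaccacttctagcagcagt
Hba-a1: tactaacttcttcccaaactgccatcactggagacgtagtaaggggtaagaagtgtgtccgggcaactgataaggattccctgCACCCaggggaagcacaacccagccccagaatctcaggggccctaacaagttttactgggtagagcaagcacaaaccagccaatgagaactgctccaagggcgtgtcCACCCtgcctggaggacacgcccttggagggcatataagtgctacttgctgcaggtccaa

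CACCC was found in 6 of the 6 tested globins with a promoter sequence, and in 51.3% of all 27025 promoters of that length. AGATAA, the core of a GATA factor site, was found in 1 of the 6, Hbb-bs, and in 10.3% of all promoters. In a further list, CANNTG, the E-box of muscle regulatory factors, was found in 26 of 30 skeletal muscle genes and in 66.0% of all promoters. Each motif was searched on both strands, and a match is only a run of letters.

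Of 7 tested globins, all 7 were higher in control kidneys, each at an unadjusted p under 0.05, with a median log2 difference of 1.00. Of all genes tested, 3.84% were higher at that p. Hbb-y had 1625, 1568, 2398 and 1274 FPKM in wild-type and 3650, 2200 and 5078 FPKM in control libraries, a log2 fold change of 1.04 with an interval of 0.31 to 1.77 (limma adjusted p = 0.665). Hba-a1 had 2156, 1873, 3631 and 1459 FPKM in wild-type and 5526, 2683 and 5375 FPKM in control libraries. Wild-type replicate 3 overlapped control replicate 2 for both. The summed FPKM of the 7 globins was 6235, 5502, 10800 and 4771 in wild-type libraries, 16110, 7933 and 18080 in control libraries and 4889, 5701 and 18600 in Ntn1SPKO libraries. The wild-type and control sums overlapped, and Ntn1SPKO replicate 3 alone among the Ntn1SPKO libraries was above the wild-type range. Leaving out control replicate 1, control replicate 3 or wild-type replicate 2 left 1 of the 7 genes at an unadjusted p under 0.05, and leaving out wild-type replicate 1 or 4 left 2.

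Among 29 other erythroid genes, 27 were higher and 2 lower, with a median log2 difference of 0.43. At an unadjusted p under 0.05 there were 13 higher and 1 lower, beside 3.84% and 3.23% of all genes tested. Slc4a1, the anion exchanger of the red cell membrane, had 7.84, 9.03, 8.26 and 3.11 FPKM in wild-type and 19.3, 12.8 and 28.2 FPKM in control libraries, without overlap. Slc25a37, the mitochondrial iron importer, had 8.92 to 11.2 FPKM in wild-type and 18.7, 11.9 and 18.9 FPKM in control libraries. Alas2, the first enzyme of erythroid haem synthesis, had 7.17 to 12.7 FPKM in wild-type and 26.8, 12.5 and 29.4 FPKM in control libraries. Cpox, a later enzyme of haem synthesis that other cells also use, was lower, with 13.2 to 16.5 FPKM in wild-type and 11.1, 12.8 and 9.55 FPKM in control libraries. Tfrc, the transferrin receptor, which other cells also use, had a log2 fold change of 0.04. Leaving out control replicate 3 gave 22 of 29 on the higher side, 5 of them at an unadjusted p under 0.05, and that count was 6 without control replicate 1 and 8 without wild-type replicate 2 or 4.

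**Figure D4:**
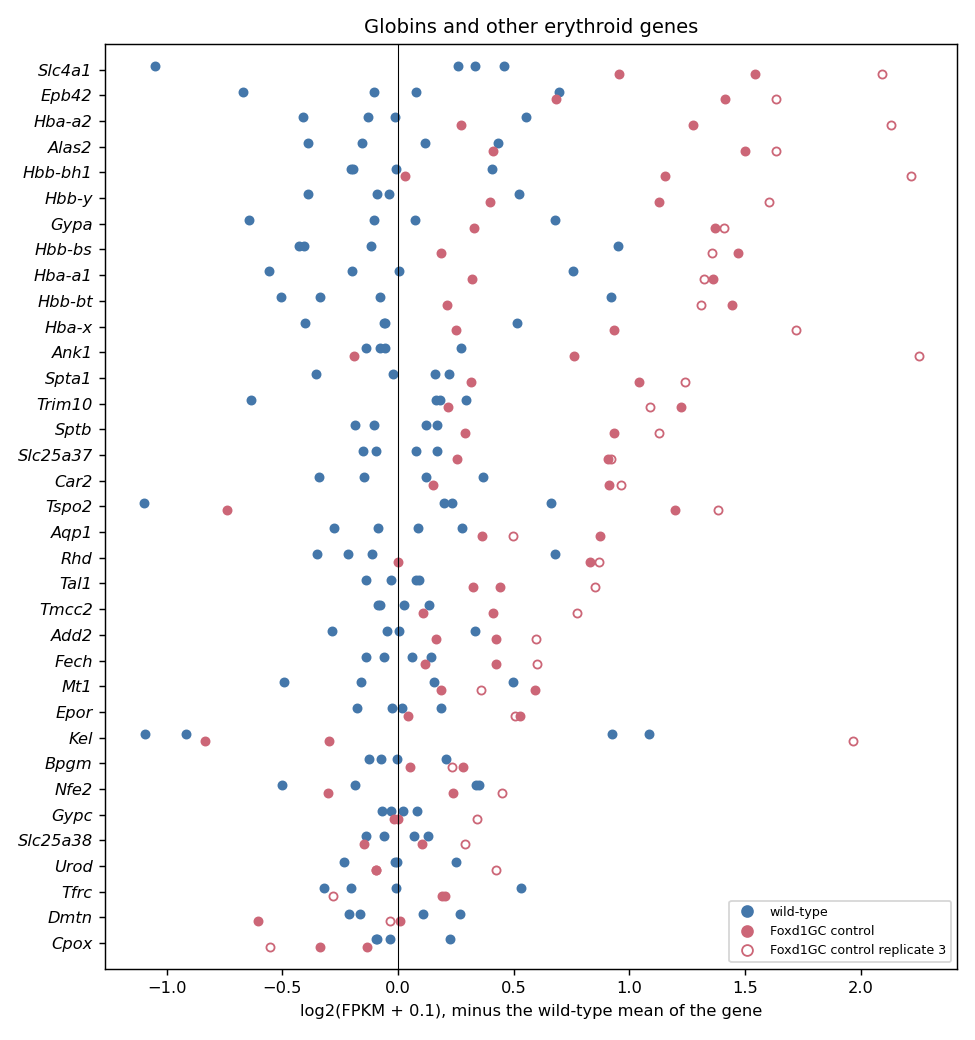
Log2(FPKM + 0.1) of the 7 globins and of other erythroid genes in each wild-type (blue) and Foxd1GC control (red) library, as the difference from the wild-type mean of the gene (horizontal axis), with control replicate 3 as open circles. For the globins, control replicates 1 and 3 lie to the right of all wild-type libraries and control replicate 2 overlaps wild-type replicate 3.

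Blood vessel genes showed small differences. Of 26 tested endothelial genes, 21 were higher and 5 lower in control kidneys, with a median of 0.17. At an unadjusted p under 0.05, 4 were higher, beside 3.84% of all genes tested, and none was lower. Egfl7, a matrix protein secreted by endothelium, had 35.4, 26.5, 29.3 and 31.0 FPKM in wild-type and 43.2, 50.9 and 57.2 FPKM in control libraries. Its log2 fold change was 0.72 with an interval of 0.42 to 1.02 (limma adjusted p = 0.665, exact permutation p = 0.0286). That permutation p is the smallest this design can give, and Egfl7 was named for its small p in the list. Of all genes tested, 4.04% were higher in control without overlap. Sox18, an endothelial transcription factor, had 7.04 to 8.08 FPKM in wild-type and 8.92, 9.61 and 9.93 FPKM in control libraries. Gja4, the connexin of arteries, had 3.85 to 5.16 FPKM in wild-type and 5.80, 5.80 and 6.76 FPKM in control libraries. Kdr, Emcn and Nrp1 had log2 fold changes of 0.16, 0.02 and 0.00. In the analysis without control replicate 3, 23 of the 26 were higher with a median of 0.20.

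Mural and pericyte genes were split, 8 higher and 9 lower of 17 with a median of −0.07. Abcc9, the sulfonylurea receptor of pericytes, had 3.10 to 4.12 FPKM in wild-type and 6.15, 5.90 and 4.13 FPKM in control libraries. Akr1b7, an aldo-keto reductase of renin cells and adrenal cortex, had 5.72, 6.23, 6.54 and 3.39 FPKM in wild-type and 2.03, 4.29 and 0.661 FPKM in control libraries. Of 16 smooth muscle contractile genes, 14 were higher with a median of 0.18. Myocd, the coactivator of smooth muscle genes, had 1.98, 1.78, 1.35 and 0.882 FPKM in wild-type and 3.61, 2.62 and 2.60 FPKM in control libraries, without overlap (log2 fold change 0.97, limma adjusted p = 0.665). When control replicate 3 was left out, 9 of the 16 were higher and the median was 0.01.

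Extracellular matrix genes were higher for 31 of 33 tested, with a median of 0.53 and 7 at an unadjusted p under 0.05. All 7 were on the higher side, beside 3.84% of all genes tested at that p. Fbln5, an elastic fibre protein, had 13.7, 13.2, 14.5 and 14.7 FPKM in wild-type and 31.7, 16.7 and 48.7 FPKM in control libraries. Col1a2, a chain of type I collagen, had 112 to 153 FPKM in wild-type and 268, 146 and 341 FPKM in control libraries. As with the globins, control replicates 1 and 3 were high and replicate 2 lay near or within the wild-type range. The median was 0.28 without control replicate 3, with 30 of 33 higher. The 7 genes at an unadjusted p under 0.05 became 1 without control replicate 1 or 3, 3 and 2 without wild-type replicates 2 and 3, and 25 without control replicate 2, where the median was 0.90.

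The skeletal muscle list holds regulators, receptors and contractile proteins of body muscle, and some members, such as the filament protein desmin, are also made by kidney cells. Of 40 tested, 39 were higher in control kidneys with a median log2 difference of 0.61. On the higher side 1 had an unadjusted p under 0.05, beside 3.84% of all genes tested. The summed FPKM of the 40 genes was 355, 245, 214 and 264 in wild-type libraries and 355, 152 and 1473 in control libraries. Control replicate 3 alone was above the wild-type range. Myog, the factor of muscle differentiation, reached 30.0 FPKM there and was as low as 1.18 FPKM among the 7 libraries. Mylpf, a fast myosin light chain, had 61.5 to 103 FPKM in wild-type and 119, 27.5 and 545 FPKM in control libraries. Without control replicate 3, 6 of the 40 were higher and 34 lower, and the median was −0.26. Without control replicate 2 the median was 1.35, and 19 genes reached an unadjusted p under 0.05. The part of muscle RNA in the other differences was not tested. The muscle median was 3.25 on the log2 scale in control replicate 3 and 0.60 to 1.27 in the other libraries of the comparison. As a covariate it largely marks that library, so muscle RNA and other traits of that library cannot be told apart. With this covariate the median was −0.12 for ureteric bud, −0.41 for early nephron, −0.16 for G2/M and 0.06 for smooth muscle genes. It was 0.09 for macrophage, 0.27 for extracellular matrix, 0.31 for erythroid and 0.87 for globin genes.

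**Figure D5:**
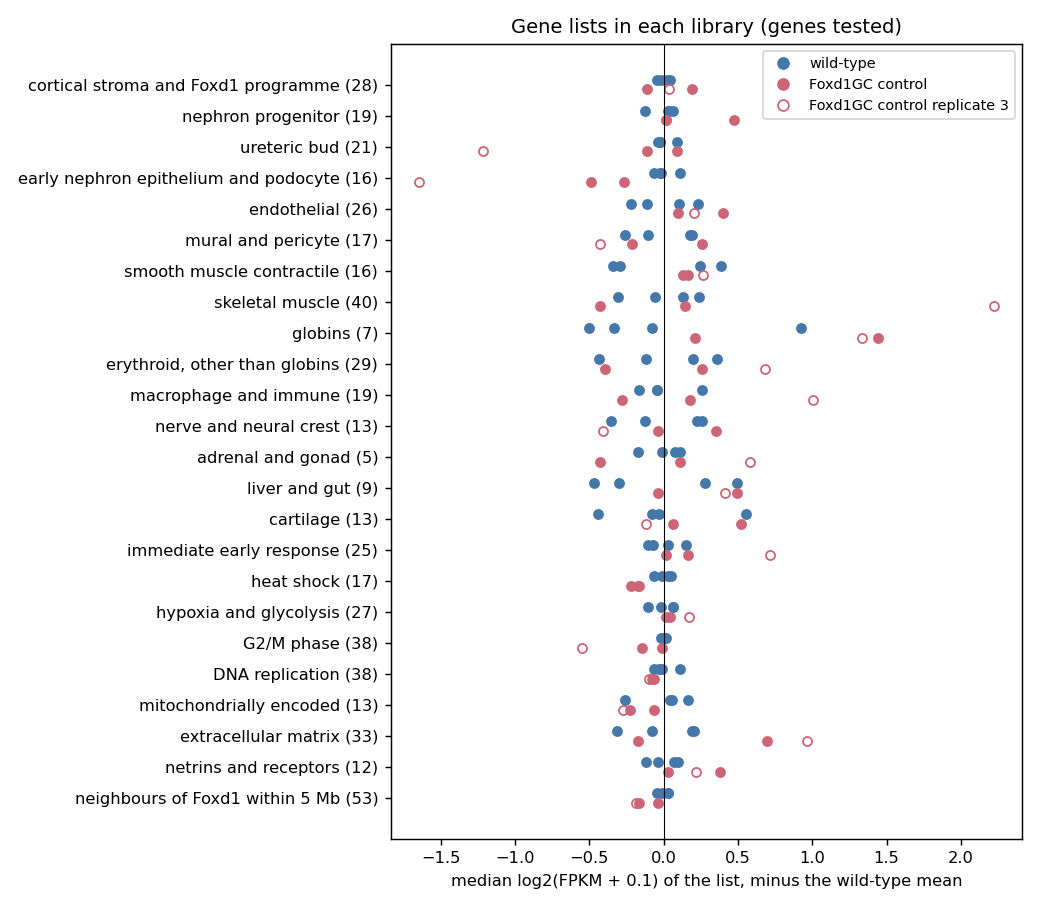
Median log2(FPKM + 0.1) of each gene list in each library, as the difference from the wild-type mean (horizontal axis), for wild-type (blue) and Foxd1GC control (red) kidneys, with control replicate 3 as open circles and the number of genes tested in brackets. The skeletal muscle, ureteric bud and early nephron lists lie far out in control replicate 3, while the 3 control libraries lie together, left of the wild-type ones, for heat shock.

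Further lists cover immune cells and tissues near the kidney. The log2 fold changes of the 19 tested macrophage and immune genes ran from 0.00 to 0.56 with a median of 0.26, though 3 turned negative under quantile normalization, and Laptm5, a lysosomal protein of leukocytes, had 3.50 to 5.55 FPKM in wild-type and 5.55, 5.89 and 7.92 FPKM in control libraries. With control replicate 3 left out, 11 of the 19 were higher and the median was 0.03, and without wild-type replicate 4 it was 0.13. All 9 liver and gut genes were higher with a median of 0.53 and none at an unadjusted p under 0.05, and Afp, a fetal liver protein, had 9.51, 2.92, 7.17 and 2.92 FPKM in wild-type and 15.1, 5.09 and 12.5 FPKM in control libraries. Without wild-type replicate 1, the liver and gut median was 1.07 and 5 of the 9 had an unadjusted p under 0.05, and without control replicate 2 there were 4. Cartilage genes were higher for 8 of 13 (median 0.15), nerve and neural crest genes for 8 of 13 (median 0.19), and adrenal and gonad genes for 2 of 5 (median −0.10). With no filter on low values, nerve and neural crest genes were higher for 22 of 28 (median 0.45). Adrenal and gonad genes were then higher for 14 of 19 (median 0.19), the opposite direction. Col9a2, a cartilage collagen, had 1.72 to 3.86 FPKM in wild-type and 6.88, 4.01 and 4.30 FPKM in control libraries.

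Cell cycle genes were lower. Of 38 G2/M genes, 37 were lower with a median of −0.28 and 11 at an unadjusted p under 0.05. Of 38 DNA replication genes, 37 were lower with a median of −0.13 and 5 at an unadjusted p under 0.05. Among all genes tested, 3.23% were lower at that p. Ttk, a spindle checkpoint kinase, had 37.8 to 39.1 FPKM in wild-type and 32.0, 35.5 and 23.7 FPKM in control libraries. Mcm3, a subunit of the replicative helicase, had 78.2 to 84.4 FPKM in wild-type and 69.5, 75.5 and 68.8 FPKM in control libraries. The groups did not overlap for either gene. That was so for 4 of the 38 G2/M genes and 7 of the 38 DNA replication genes. Of all genes tested, 4.04% were lower in control without overlap. Top2a, a topoisomerase of dividing cells, had 201 to 238 FPKM in wild-type and 202, 201 and 143 FPKM in control libraries. Without control replicate 3, 36 of the 38 G2/M genes were lower, 1 at an unadjusted p under 0.05, and the median was −0.13. The count of 11 became 0 at the same total FPKM or without wild-type replicate 2, 4 under quantile normalization, 2 with no intensity trend, 1 without wild-type replicate 1 or 4, 5 without wild-type replicate 3 or control replicate 1, and 30 without control replicate 2. For DNA replication the count of 5 became 1 at the same total FPKM, 2 under quantile normalization, and 1 to 9 without single libraries, lowest without wild-type replicate 2, control replicate 1 or control replicate 3 and highest without control replicate 2.

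The immediate early, heat shock, hypoxia and mitochondrially encoded lists differed in direction. Whether they reflect handling of the tissue was not tested. Of 25 immediate early genes, 17 were higher with a median of 0.10 and 4 at an unadjusted p under 0.05, beside 3.84% of all genes tested. The count of 4 became 1 without wild-type replicate 2, control replicate 1 or control replicate 3. Atf3, a stress-induced transcription factor, had 1.29 to 1.85 FPKM in wild-type and 2.89, 2.05 and 2.44 FPKM in control libraries. Of 17 heat shock genes, 14 were lower with a median of −0.15, and 4 were lower at an unadjusted p under 0.05, beside 3.23% of all genes tested. That count was 0 under quantile normalization, where the median was −0.08, and 0 at the same total FPKM, and it ran from 2 to 6 without single libraries. Hsp90aa1, the inducible cytosolic Hsp90, had 751, 798, 715 and 778 FPKM in wild-type and 612, 655 and 555 FPKM in control libraries, without overlap (log2 fold change −0.33, limma adjusted p = 0.665). For 6 of the 17 heat shock genes every control library lay below every wild-type library, against 4.04% of all genes. Of 27 hypoxia and glycolysis genes, 16 were higher with a median of 0.06, and Pfkp, a phosphofructokinase, had 2.59 to 2.94 FPKM in wild-type and 4.03, 3.62 and 3.76 FPKM in control libraries. Of 13 mitochondrially encoded genes, 3 were higher and 10 lower with a median of −0.23. Their part in the other differences was not tested.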

How the data were processed

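RNA of whole E13.5 kidneys was quantified by the authors with Salmon against coding sequences of Ensembl GRCm38 (bcl2fastq 2.17.1.14 in the submitters' notes), imported to genes, and deposited as FPKM. Median-of-ratios factors of the 10 libraries were all 1.002, so the deposited FPKM carry that scaling. Of 35663 entries, 97.3% matched GENCODE M21 by symbol.

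Entries averaging 0.5 FPKM or more across the 7 libraries entered a linear model of log2(FPKM + 0.1) in limma 3.58.1 (R 4.3.3, statmod 1.5.0, eBayes with an intensity trend, Benjamini-Hochberg adjustment). A fold change is on that scale and understates the change of low genes. Calls needed an adjusted p under 0.1 and a 2-fold change. The exact permutation test ran over 35 splits. Gene lists were described by counts and medians. Members and lists were chosen with earlier results of these data known. Named genes were Foxd1, Ntn1, up to 15 genes in each direction (called, then non-overlapping with at least a 2-fold change and the smallest p), the 3 smallest p of each list, the 2 highest members of lists described as moving (at least 90% of members on 1 side and a median of at least 0.25 in size) and 3 neighbours on each side of Foxd1. Other list members are named as examples, chosen after their values were seen. Some genes of the lists and of the rule are counted but not reported here by name.

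On simulated data for this comparison (4 against 3 libraries), 177 of 193 tested genes with a log2 change of 2 and 79 of 197 with a change of 1 were called. In these runs 7 and 13 unchanged genes were called as well. The simulation drew each gene independently, whereas in the data control replicate 3 stood apart across many genes. These rates therefore need not hold for the real libraries. Alternatives were other pseudocounts, filters, scalings, eBayes settings, all 10 libraries, the replicate number as a block, covariates and leaving out libraries. For the sex covariate, the limit on summed Y-linked FPKM was first 1 and was raised to 10 after the sums were seen, because control replicate 3 lay just above 1. That change, the fit at the limit of 1 and the one without 2 libraries were chosen after seeing the data.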

Additional observations from a re-analysis of the deposited data

Results flagged for a closer look

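In a group of 4 libraries, 1 library far from the other 3 was looked for in 141 sets of wild-type values, and 8 were found; chance gives about 1 in 20. Wild-type replicate 3 had a summed FPKM of 1002638, against 795829 to 809645 in the other wild-type libraries. It was also apart for Ube2c (242 against 183 to 191 FPKM), Btf3 (935 against 638 to 678 FPKM), the median log2 level of nephron progenitor genes (5.08 against 5.23 to 5.26) and that of ureteric bud genes (5.03 against 4.90 to 4.91). Replicate 4 was apart for Actn3 (9.68 against 7.53 to 7.81 FPKM), replicate 1 for Actc1 (38.1 against 19.1 to 19.9 FPKM) and replicate 2 for Trf (4.26 against 5.48 to 5.64 FPKM).

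Outside the comparison, Npas3 was at 17.7 FPKM in Ntn1SPKO replicate 3, above the 0.653 to 0.835 FPKM of the wild-type libraries, while Ntn1SPKO replicates 1 and 2 were within that range. The cause was not tested.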

How the results depend on the processing

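The main analysis called 1 gene higher and 0 lower by limma. The higher count was 2 with a pseudocount of 1, 6 with no filter on low values, 3 with no intensity trend, 0 with all 10 libraries in one fit, 8 without control replicate 3 and wild-type replicate 3 together, 0 with the sex covariate at a limit of 1 FPKM, and 1 to 14 without single libraries. The lower count was 1 with a pseudocount of 0.01, 3 with no filter, 1 with no intensity trend, 2 with the skeletal muscle covariate, 8 without the 2 libraries, and 1 to 6 without single libraries. At an unadjusted p under 0.1 with a 2-fold change the counts were 114 and 93. With a replicate block over replicates 1 to 3, which leaves out wild-type replicate 4, 0 genes were called in either direction and Npas3 had an adjusted p of 0.614; with the replicate block as an estimated correlation the counts were 1 and 0. Same-numbered libraries had correlations of 0.0755, 0.038 and 0.0544 of their deviations, and the labels tie no number to a litter or day. Foxd1 kept its direction and stayed uncalled in all 23 alternatives. Of 2702 values for 118 other genes, 22 changed sign. With the sex covariate at the limit of 1 FPKM Pf4 was −0.13, Ddx3y −1.03, Kdm5d −1.34 and Eif2s3y −1.64. Pf4 was −0.083 with the replicate block over replicates 1 to 3. With the muscle covariate Ntn1 was −0.056 and Mylpf −0.24. Without the 2 libraries Ntn1 was −0.15, Actc1 −0.18, Mylpf −0.49 and Btf3 0.009. Without single libraries the log2 fold changes ran from −0.057 to 0.485 for Ntn1, −0.10 to 1.64 for Actc1, −0.39 to 1.76 for Mylpf, −0.068 to 0.215 for Tfrc, −0.083 to 0.389 for Pf4, −0.79 to 3.34 for Ddx3y, −1.23 to 2.42 for Kdm5d and −1.47 to 2.71 for Eif2s3y. The causes were not tested. Depth limits low genes, and the absolute depth is unknown.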
